A study of Homo sapiens with 6 samples.

Results

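Glycolysis splits glucose into pyruvate in the cytosol and yields ATP and NADH, and its enzymes are among the most abundant proteins of proliferating tumour cells. In colon carcinoma cells much of the pyruvate is turned into lactate, and the genes of the pathway are known targets of the transcription factors HIF1A and MYC. The RNAs of 10 enzymes, from the first step of the pathway to lactate, are described here: HK2, GPI, PFKP, ALDOA, TPI1, GAPDH, PGK1, ENO1, PKM and LDHA. The enzymes were chosen by gene name. Of these, 7 had an entry of their own name among the 42822 entries of the table, and 3 were held inside an entry named after another gene.

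The RNAs were measured in HCT116-UGI cells, a line derived from the colon carcinoma line HCT116 that lacks mismatch repair and expresses UGI, a bacteriophage protein that blocks uracil excision by UNG. The cultures received 20 µM 5FdUR, 100 nM RTX or no drug (NT) for 48 h. 5FdUR is a fluorinated nucleoside whose phosphate blocks thymidylate synthase (TS), the enzyme that makes thymidylate for DNA, and RTX (raltitrexed) is an antifolate inhibitor of the same enzyme. TS is known to bind RNA as well, its own mRNA among others. From each lysate RNA was taken from an immunoprecipitate made with an anti-TS antibody (TS-RIP) and from the antibody-free beads used to pre-clear that lysate (RIPctr). This gave 6 libraries, 1 for each of 3 treatments and 2 fractions, so no treatment had a biological replicate, and the control was beads without an antibody rather than an unrelated antibody. All groups carry the same repair defects, and all come from 1 cell line.

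The TS-RIP libraries held 10215667, 11042691 and 11657293 fragments in 5FdUR, RTX and NT, and the RIPctr libraries held 7051104, 7903472 and 9269725. The deposited values are fragments times 1 scaling step per library, without division by gene length, and they are given here in kilounits (ku, 1000 such units). Of the colon epithelial markers, KRT8, KRT18, KRT19, EPCAM and CDH1 were abundant, while CDX1, VIL1 and LGALS4 had values under 1 ku in each library. The summed value of 10 markers of fibroblasts, blood, endothelium and liver was 17.3, 18.8 and 27.3 ku in TS-RIP of 5FdUR, RTX and NT and 26.3, 25.9 and 30.9 ku in RIPctr. Most of it was COL1A1, a collagen chain, with 9.0, 11.4 and 21.1 ku in TS-RIP and 17.9, 18.5 and 24.7 ku in RIPctr. It was called lower in TS-RIP (limma adjusted p = 0.025, or 0.13 without the RTX pair and 0.17 without the 5FdUR pair). That was 1 of 3 such markers tested, where 6.17% of all entries were lower. VIM went the other way with the drugs, at 6.5, 4.2 and 2.0 ku in TS-RIP and 5.0, 3.4 and 2.6 ku in RIPctr (limma adjusted p = 0.81). The part of COL1A1 in the other results was not tested, and CD3E was at 0 in each library. TYMS, the gene of TS itself, had 200.6, 292 and 133 ku in TS-RIP of 5FdUR, RTX and NT, against 195, 249.8 and 124 ku in RIPctr (limma adjusted p = 0.49).

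The 3 enzymes without an entry of their own cannot be told apart from their neighbours. GPI, which turns glucose 6-phosphate into fructose 6-phosphate, lay in the entry named PDCD2L. ALDOA, the aldolase that splits the phosphorylated hexose, lay in the entry named AC093512.2, and PGK1, which makes the first ATP of the pathway, lay in the entry named ATP7A, a copper transporter. Values of these entries are given by the entry's name, and counts of enzymes cover the other 7. The PFKP entry also held transcripts of PITRM1-AS1 and ENSG00000278419. Reads were assigned to a strand by the authors and only uniquely mapped reads were kept. GAPDH and several other enzymes have processed pseudogenes, and the number of reads lost to them was not tested.

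Among the 7 enzymes, ENO1 and PKM were the most abundant RNAs. ENO1, the enolase on chromosome 1 (GRCh38, 8861000 to 8878689), ranked at place 11 of all 42822 entries by its mean value, and PKM, the pyruvate kinase on chromosome 15 (72199029 to 72231822), at place 12. Per kilobase of the canonical transcript, the mean level over 6 libraries was 2200.2 ku for ENO1, 1678 for PKM, 1235 for GAPDH and 545 for TPI1. On the same scale LDHA had 252 ku, PFKP 152 and HK2 19.6. Some neighbours in this order overlapped between libraries: PKM reached 2102 ku per kilobase, above the lowest library of ENO1 (1893), and GAPDH reached 1605, above the lowest of PKM (1384). TPI1 stayed below GAPDH, LDHA below TPI1, PFKP (at most 192) and LDHA (at least 160.2) overlapped, and HK2 stayed below PFKP in all 6 libraries. HK2, a hexokinase that traps glucose in the cell, was the rarest of the 7, with 705 to 1279 fragments per library against 24744 to 48713 for ENO1.

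The enzymes' RNAs together took a larger share of the drug-treated TS-RIP libraries than of the matching bead controls, and a smaller one in NT. The 7 enzymes held 1.25% and 1.29% of fragments in TS-RIP of 5FdUR and RTX and 0.904% in TS-RIP of NT, against 1.11%, 1.08% and 0.987% in RIPctr. This share does not depend on the scaling between libraries.

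LDHA (chromosome 11, 18394562 to 18408425), the lactate dehydrogenase subunit that turns pyruvate into lactate, had 664, 748 and 359 ku in TS-RIP of 5FdUR, RTX and NT, against 575, 645 and 398 ku in RIPctr. Both NT libraries lay below all 4 drug libraries. TPI1 (chromosome 12, 6867119 to 6873336), which interconverts the triose phosphates, had 985, 1001 and 473 ku in TS-RIP, against 779.6, 684 and 492 ku in RIPctr. The NT libraries were again the lowest of the 6. GAPDH (chromosome 12, 6534517 to 6556083), the dehydrogenase that makes NADH, had 1882, 2063 and 976 ku in TS-RIP, against 1732, 1599 and 1271 ku in RIPctr. Here too NT lay below the drugs in both fractions, and NT TS-RIP was lowest.

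PKM, which makes pyruvate and ATP, had 4845, 4628 and 3189.8 ku in TS-RIP of 5FdUR, RTX and NT, against 3753, 3350.2 and 3440.3 ku in RIPctr. NT lay between the drugs in RIPctr, whereas in TS-RIP both drug libraries stood above NT. PFKP (chromosome 10, 3067548 to 3172841), a phosphofructokinase of the committed step, had 460.0, 504 and 327 ku in TS-RIP, against 378, 366 and 357 ku in RIPctr. Its RIPctr libraries were close together, and only the TS-RIP libraries spread. ENO1, which makes phosphoenolpyruvate, had 3764, 4694 and 3521 ku in TS-RIP, against 3372, 3814 and 4346 ku in RIPctr, so that NT was the lowest of the TS-RIP and the highest of the RIPctr libraries. HK2 (chromosome 2, 74834127 to 74893359) had 95.4, 109 and 109 ku in TS-RIP, against 96.1, 122 and 128 ku in RIPctr. It was the only one of the 7 with no library of a drug above the RIPctr library of NT.

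**Figure D1:**
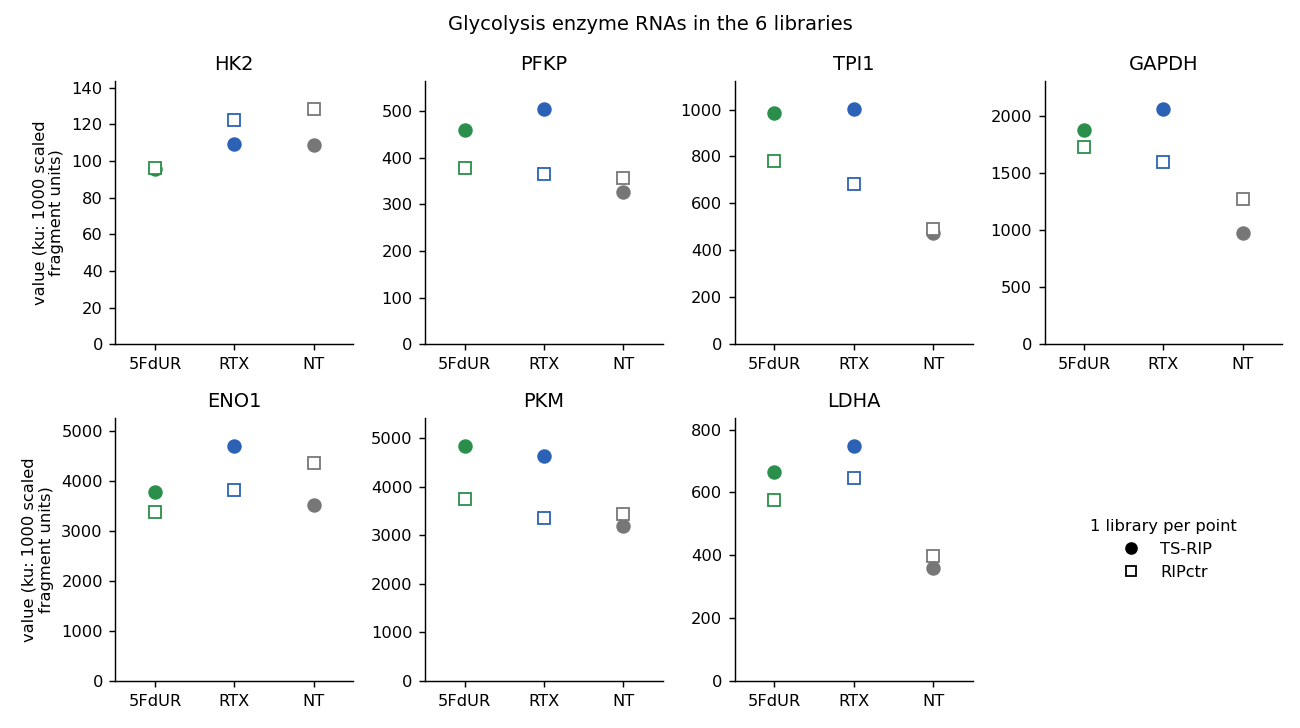
Value of each of the 7 enzymes (ku, 1000 scaled fragment units, vertical axis from 0) in 5FdUR, RTX and NT, with filled circles for TS-RIP and open squares for RIPctr; each point is 1 library. For LDHA, TPI1 and GAPDH both NT points lie below all drug points, and for HK2 they do not.

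A difference between TS-RIP and the bead control that holds over the 3 treatments was looked for first. None of the 7 enzymes was called higher or lower with TS. In limma, with the 3 treatments as 3 pairs and 2 residual degrees of freedom, 0 of 7 enzymes passed an adjusted p of 0.05 in either direction. Of all 13479 entries with a mean above 500, 314 were higher (2.33%) and 831 lower (6.17%), or 67 and 460 with each library scaled to the same total. No enzyme had an unadjusted p under 0.05 (lowest 0.069, limma), while 3448 of all entries did. By edgeR or by DESeq2 on the recovered fragments 0 of 7 were called. Of all entries, edgeR called 382 higher and 711 lower, and DESeq2 276 and 419. TPI1 had the largest mean log2 ratio, 0.28 (SE 0.14, above 0 in 2 of 3 pairs, adjusted p = 0.24), followed by PKM with 0.24 (SE 0.21, adjusted p = 0.50) and PFKP with 0.21 (SE 0.13, adjusted p = 0.34). HK2 was at -0.14 (SE 0.10, adjusted p = 0.44), below 0 in each of 3 pairs. For LDHA, ENO1 and GAPDH the mean ratio was between 0.04 and 0.09, and their adjusted p was between 0.69 and 0.93. The SE is limma's moderated one, the p measures the spread over 3 different treatments and not over repeats of 1, and a p above the threshold does not show that an RNA was not bound.

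The ratios went in different directions between treatments, and their SD over 3 pairs exceeded the mean ratio in 6 of 7 enzymes, HK2 being the exception. In log2 units the ratio of GAPDH was 0.12 [0.09 to 0.15] in 5FdUR, 0.37 [0.34 to 0.40] in RTX and -0.38 [-0.42 to -0.34] in NT, where brackets give the 95% counting interval. For ENO1 it was 0.16 [0.14 to 0.18], 0.30 [0.28 to 0.32] and -0.30 [-0.32 to -0.28], and for PKM 0.37, 0.47 and -0.11. These intervals do not overlap between either drug and NT.

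The signs of the ratios were alike in 6 of the 7 enzymes, below 0 in NT and above 0 in both RTX and 5FdUR. TPI1 had ratios of 0.34, 0.55 and -0.06 in 5FdUR, RTX and NT, PFKP 0.28, 0.46 and -0.13, and LDHA 0.21, 0.22 and -0.15. HK2 was below 0 in each treatment, at -0.01, -0.16 and -0.24. Among the merged entries, PDCD2L (with GPI) had 0.28, 0.37 and -0.20, ATP7A (with PGK1) 0.07, 0.05 and -0.21, and AC093512.2 (with ALDOA) 0.32, 0.52 and 0.10. In no treatment did an enzyme pass 1.5-fold between TS-RIP and RIPctr, where 18.1% of all entries did in 5FdUR, 18.9% in RTX and 14.2% in NT.

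**Figure D2:**
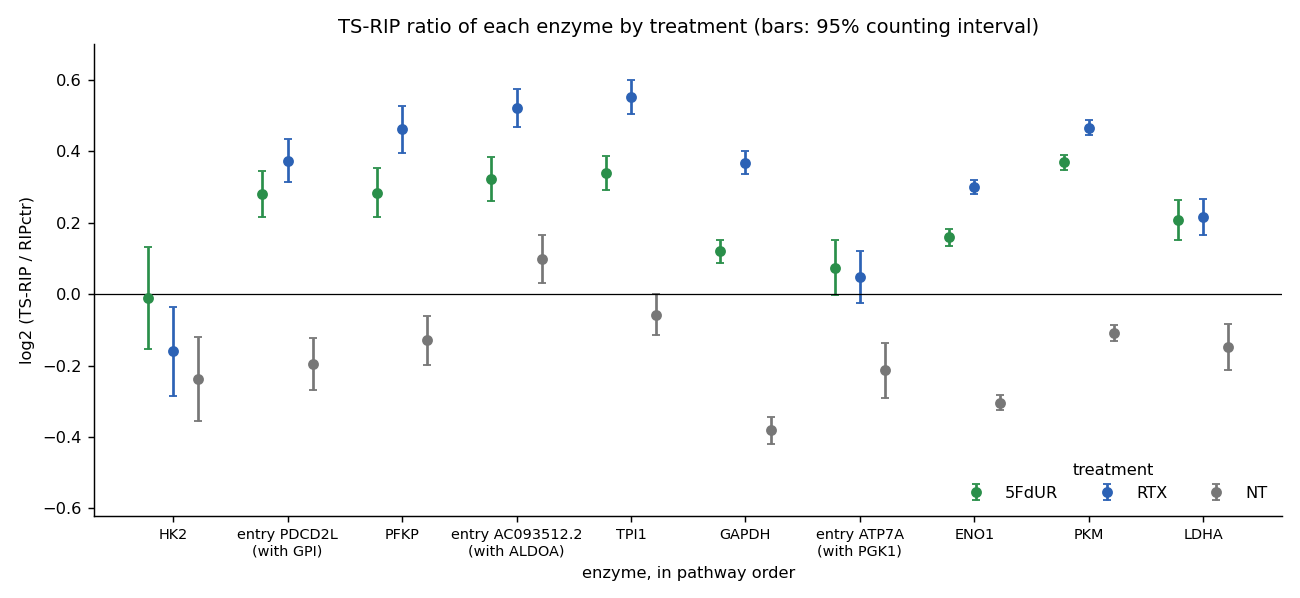
Log2 ratio of TS-RIP over RIPctr (vertical axis) for the 7 enzymes and the 3 merged entries in pathway order, in 5FdUR, RTX and NT; bars are 95% counting intervals of 1 pair of libraries. The NT point is below 0 for all but AC093512.2, and both drug points are above 0 for all but HK2.

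The same sign pattern was more frequent the more abundant the RNAs were. It was found in 13.1% of the 13479 entries with a mean above 500, in 27.5% of the 2278 above 100000 and in 47.5% of the 80 above 1000000. All 7 enzymes have a mean above 100000, and the 3 above 1000000 (ENO1, PKM and GAPDH) showed the pattern. Median ratios of the 7 enzymes were 0.21, 0.37 and -0.15 in 5FdUR, RTX and NT. They were 0.25, 0.31 and -0.20 over the 80 most abundant entries, which hold 3 of the 7. Over the 2278 entries above 100000, which hold all 7, they were 0.12, 0.12 and -0.02, and over all 13479 -0.01, -0.00395 and 0.02. The enzymes' part in a pattern that follows abundance was not tested.

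With equal library totals in place of the authors' scaling, the median ratio over all entries was -0.10, -0.12 and 0.11 in 5FdUR, RTX and NT. Relative to the median of all entries, the enzymes' median was 0.22, 0.37 and -0.17 under either scaling. That agreement is built in, as a factor per library moves all ratios of a treatment nearly alike. Under the same total, TPI1 turned to 0.03 in NT, and the other 5 enzymes kept the signs. Of these, PKM, PFKP and LDHA were close to 0 in NT (-0.02, -0.04 and -0.06), as was GAPDH in 5FdUR (0.04). The sign pattern was then found in 5.9% of all entries, 12.6% of those above 100000 and 32.5% of those above 1000000. The ATP7A entry (with PGK1) turned to -0.01 in 5FdUR and -0.07 in RTX under that scaling.

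Without the NT pair, limma called 6 of the 7 enzymes higher in TS-RIP, on 2 pairs and 1 residual degree of freedom. Of all entries 13.8% were then called higher, and 37.2% of those with a mean above 100000. TPI1 had a mean ratio of 0.44 (SE 0.07, adjusted p = 4.1e-08), PKM 0.42 (SE 0.08, adjusted p = 2.7e-06) and PFKP 0.37 (SE 0.07, adjusted p = 7.9e-06). GAPDH, ENO1 and LDHA were at 0.24, 0.23 and 0.21 (adjusted p = 0.0062, 0.016 and 0.017), and HK2 was at -0.09 (adjusted p = 0.49). With the 5FdUR pair or the RTX pair left out instead, 0 of 7 enzymes passed. At 1 residual degree of freedom the SE and p rest mostly on a spread that limma borrows from other entries. The NT pair is the one in which the 6 enzymes had ratios below 0, so leaving it out favours a call. This fit was not repeated with each library scaled to the same total, where the drug ratios of the 6 were smaller.

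The shift of the ratio with a drug was then taken as the drug's ratio minus that of NT. With 1 library per group it has no test. The shift of GAPDH was 0.50 [0.45 to 0.55] in 5FdUR and 0.75 [0.70 to 0.80] in RTX, with counting intervals only. ENO1 shifted by 0.46 [0.43 to 0.49] and 0.60 [0.57 to 0.63], and PKM by 0.48 [0.45 to 0.51] and 0.58 [0.54 to 0.61]. TPI1 and PFKP lay at 0.40 and 0.41 in 5FdUR and at 0.61 and 0.59 in RTX, and LDHA at 0.36 in both. HK2 shifted least, by 0.23 [0.05 to 0.41] in 5FdUR and 0.08 [-0.09 to 0.25] in RTX. All of these shifts were smaller with each library scaled to the same total. On that scale GAPDH shifted by 0.32 in 5FdUR and 0.54 in RTX, ENO1 by 0.29 and 0.40, PKM by 0.30 and 0.37, TPI1 by 0.22 and 0.40 and PFKP by 0.24 and 0.38. LDHA was then at 0.18 and 0.16, and HK2 at 0.05 and -0.13.

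Between the drugs, the counting interval of the shift, 5FdUR minus RTX, lay below 0 for 5 of the 7 enzymes under either scaling. It did so for 10.1% of all entries, 26.2% of those above 100000 and 53.8% of those above 1000000, or 7.96%, 19.8% and 46.2% under the same total. 5FdUR minus RTX was -0.25 [-0.29 to -0.20] for GAPDH, -0.21 [-0.28 to -0.15] for TPI1, -0.18 [-0.27 to -0.08] for PFKP, -0.14 [-0.17 to -0.11] for ENO1 and -0.10 [-0.13 to -0.07] for PKM. For LDHA it was -0.01 [-0.08 to 0.07] and for HK2 0.15 [-0.04 to 0.34], where the counting interval covers 0. The median shift of the 7 enzymes was 0.41 in 5FdUR and 0.59 in RTX, against 0.39 and 0.47 over the 80 entries with a mean above 1000000, 0.13 and 0.17 over those above 100000, and -0.04 and -0.03 over all entries. Under the same total these medians were 0.24 and 0.38 for the enzymes, 0.22 and 0.26 for the 80 entries, -0.04 and -0.03 above 100000, and -0.22 and -0.24 over all.

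**Figure D3:**
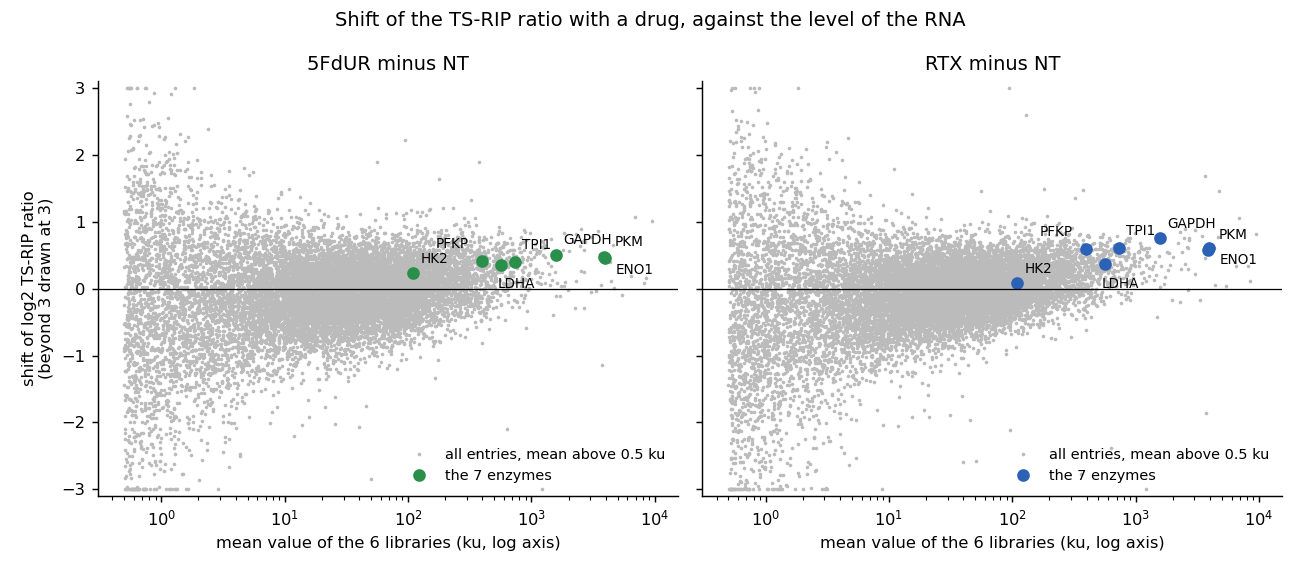
Shift of the log2 TS-RIP ratio (drug minus NT, vertical axis) against the mean value of the 6 libraries in ku (log axis), for 5FdUR on the left and RTX on the right; grey points are all 13479 entries, coloured points the 7 enzymes. The cloud rises at high values, and the enzymes sit in its abundant end, HK2 nearest to 0.

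How the enzymes' RNAs changed with a drug was read in both fractions, with no test, as the 2 fractions of a treatment share a lysate. In a bulk library, fewer cells with an RNA and less of it per cell cannot be told apart. Neither drug changed any of the 7 enzymes by 2-fold in both fractions. Of all entries with a mean of the 4 libraries above 1000, 10.0% were up and 7.75% down in 5FdUR against NT by that rule, and 5.33% and 3.61% in RTX against NT. At 1.5-fold in both fractions, TPI1 was up in 5FdUR (1 of 7 enzymes, 20.3% of all entries) and LDHA in RTX (1 of 7, 14.2% of all entries).

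LDHA was 0.89 [0.83 to 0.94] above NT on the log2 scale in TS-RIP and 0.53 [0.47 to 0.60] in RIPctr with 5FdUR, and 1.06 [1.00 to 1.11] and 0.70 [0.63 to 0.76] with RTX. TPI1 was 1.06 [1.01 to 1.11] and 0.66 [0.61 to 0.72] above NT with 5FdUR, and 1.08 [1.03 to 1.13] and 0.47 [0.42 to 0.53] with RTX. GAPDH was 0.95 and 0.45 above NT with 5FdUR and 1.08 and 0.33 with RTX. In these 3 enzymes both fractions gave the same direction with both drugs, and TS-RIP gave the larger value. The merged entries PDCD2L (with GPI) and AC093512.2 (with ALDOA) behaved likewise, at 0.96 and 0.48 and at 0.69 and 0.47 with 5FdUR, and at 1.06 and 0.49 and at 1.05 and 0.62 with RTX.

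With the drugs PFKP and PKM lay further above NT in TS-RIP than in the bead control, ENO1 was above NT in TS-RIP alone, and HK2 was below NT with 5FdUR. PFKP was 0.49 above NT in TS-RIP and 0.08 in RIPctr with 5FdUR, and 0.62 and 0.04 with RTX. PKM was 0.60 and 0.13 above NT with 5FdUR, and 0.54 and -0.04 with RTX. With each library scaled to the same total, the RIPctr values were 0.22 for PFKP and 0.26 for PKM with 5FdUR, and 0.14 and 0.07 with RTX. ENO1 differed in sign between the fractions, at 0.10 [0.08 to 0.12] in TS-RIP and -0.37 [-0.39 to -0.34] in RIPctr with 5FdUR, and at 0.41 [0.40 to 0.43] and -0.19 [-0.21 to -0.17] with RTX. The signs held under the same total, at 0.06 and -0.23 with 5FdUR and 0.31 and -0.08 with RTX. HK2 was below NT in both fractions with 5FdUR, at -0.19 [-0.31 to -0.07] and -0.42 [-0.55 to -0.28], and near NT with RTX, at 0.01 [-0.11 to 0.13] and -0.07 [-0.19 to 0.06]. ATP7A (with PGK1) was 0.38 and 0.09 above NT with 5FdUR and 0.46 and 0.20 with RTX, its RIPctr values being 0.23 and 0.31 under the same total.

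**Figure D4:**
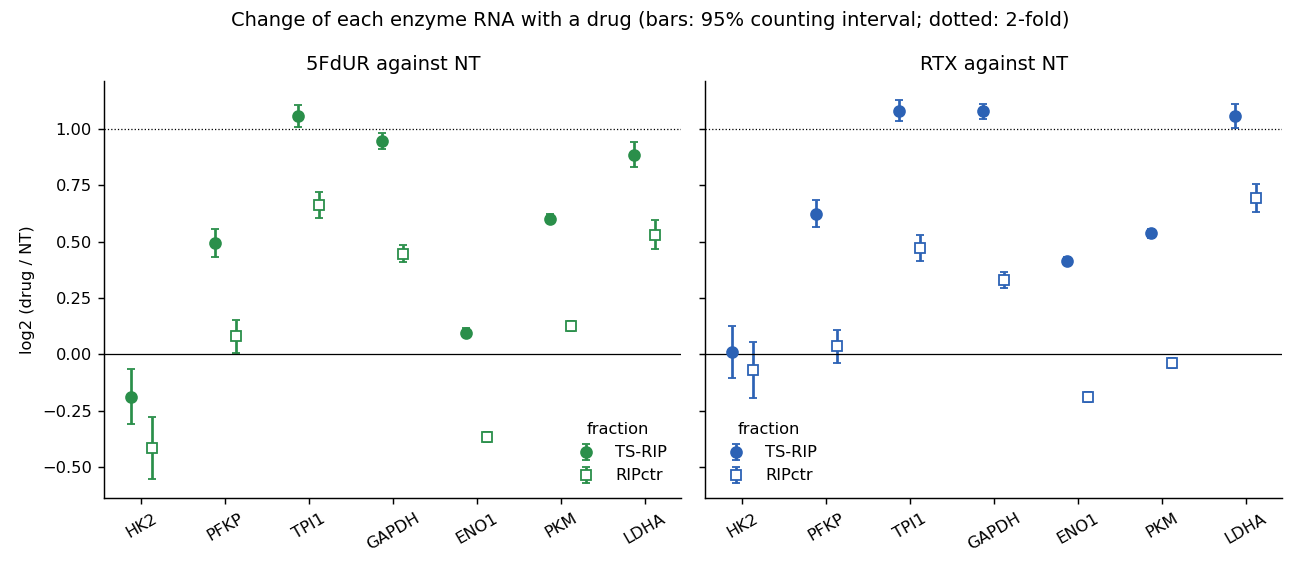
Log2 change of each enzyme against NT (vertical axis) with 5FdUR on the left and RTX on the right, filled circles for TS-RIP and open squares for RIPctr; bars are 95% counting intervals and the dotted line marks 2-fold. TPI1 with 5FdUR and TPI1, GAPDH and LDHA with RTX pass 2-fold in TS-RIP, and no enzyme does in RIPctr; with each library scaled to the same total TPI1 with 5FdUR alone passes (1.02), the others with RTX lying between 0.96 and 0.98.

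The medians of the 7 enzymes were 0.60 in TS-RIP and 0.13 in RIPctr with 5FdUR, and 0.62 and 0.04 with RTX, against 0.02 and 0.03 and -0.02 and 0.01 over all 13479 entries. Under the same total they were 0.56 and 0.26 with 5FdUR and 0.52 and 0.14 with RTX, against -0.02 and 0.17 and -0.12 and 0.11 over all entries. Between the drugs no enzyme differed by 2-fold, where 1.04% of all entries were up and 0.352% down in 5FdUR against RTX. The largest differences over both fractions were those of HK2 (mean -0.27) and ENO1 (mean -0.25). ENO1 was at -0.32 [-0.34 to -0.30] in TS-RIP and -0.18 [-0.20 to -0.15] in RIPctr. HK2 was at -0.20 [-0.32 to -0.07] and -0.35 [-0.49 to -0.21], and LDHA at -0.17 and -0.16. TPI1 was at -0.02 [-0.06 to 0.02] in TS-RIP and 0.19 [0.14 to 0.24] in RIPctr.

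As LDHA, TPI1 and GAPDH had the largest changes against NT over both fractions with either drug and HK2 the lowest, the promoters of these 4 genes are shown, each with 250 bases before and 50 after an annotated start (RefSeq, GRCh38.p14, plus strand). Capitals mark each ACGTG on either strand, a form of the core letters that HIF1 reads. GCGTG, another form of that core, was neither searched nor marked, so the marks are no full list of HIF1 cores. The 6 capitals in a row that read CACGTG are the E-box letters that MYC reads. The windows are chr11:18394313-18394612 (LDHA), chr12:6867855-6868154 (TPI1), chr12:6535014-6535313 (GAPDH) and chr2:74834920-74835219 (HK2). Where a gene has several starts, the window with the most matches was taken.
LDHA: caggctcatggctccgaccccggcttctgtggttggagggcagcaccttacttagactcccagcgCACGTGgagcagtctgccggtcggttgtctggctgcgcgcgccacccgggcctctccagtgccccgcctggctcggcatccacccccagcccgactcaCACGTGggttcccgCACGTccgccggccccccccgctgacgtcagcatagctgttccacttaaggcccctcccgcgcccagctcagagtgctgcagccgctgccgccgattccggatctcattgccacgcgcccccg
TPI1: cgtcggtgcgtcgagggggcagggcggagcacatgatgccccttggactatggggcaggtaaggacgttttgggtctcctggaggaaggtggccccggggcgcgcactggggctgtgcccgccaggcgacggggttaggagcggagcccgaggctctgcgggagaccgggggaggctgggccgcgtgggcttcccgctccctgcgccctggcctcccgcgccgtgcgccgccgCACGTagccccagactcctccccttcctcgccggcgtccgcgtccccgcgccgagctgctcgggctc
GAPDH: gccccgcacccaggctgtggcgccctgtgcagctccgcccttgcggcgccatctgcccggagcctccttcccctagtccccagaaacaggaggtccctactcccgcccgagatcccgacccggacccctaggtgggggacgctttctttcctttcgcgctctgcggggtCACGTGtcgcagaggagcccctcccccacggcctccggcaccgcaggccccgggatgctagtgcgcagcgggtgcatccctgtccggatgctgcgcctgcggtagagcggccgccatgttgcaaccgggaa
HK2: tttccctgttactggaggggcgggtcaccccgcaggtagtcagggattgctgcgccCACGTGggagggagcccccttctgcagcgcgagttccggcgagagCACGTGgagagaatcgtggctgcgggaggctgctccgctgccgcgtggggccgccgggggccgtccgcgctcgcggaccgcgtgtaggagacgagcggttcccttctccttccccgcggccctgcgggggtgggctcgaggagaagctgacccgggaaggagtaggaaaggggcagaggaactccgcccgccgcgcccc

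LDHA held 3 marked stretches, of which 2 read CACGTG, at 185 and 87 bases before the start. GAPDH held 1 CACGTG at 81 bases before the start, HK2 held 2 at 194 and 149 bases, and TPI1 held a single ACGTG, on the other strand. Over all 10 enzymes, 11 of 18 windows held an ACGTG and 4 of 18 a CACGTG, against 21.4% and 7.26% of all 35116 promoter windows. By gene, 8 of 10 had an ACGTG in at least 1 window and 4 a CACGTG, and no share by gene was computed for these. Windows of 1 gene can overlap. ENO1 and PKM had neither in their windows. As the window with the most matches was shown, presence of the letters in it was favoured by that choice. LDHA and TPI1 each had an ACGTG in 1 of 2 windows, HK2 in 2 of 2 and GAPDH in 1 of 1. Binding was not measured, and a link of the letters to the drug changes was not tested.

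Of the factors themselves, MYC had an entry of its own and HIF1A did not. MYC was lower by over 2-fold with both drugs in both fractions: it had 217, 235 and 618 ku in TS-RIP of 5FdUR, RTX and NT, against 223, 214 and 579 ku in RIPctr. On the log2 scale this was -1.51 and -1.37 against NT with 5FdUR and -1.39 and -1.43 with RTX. HIF1A lay in an entry of 3 genes named SNAPC1, so that its own RNA is not known. That entry had 249.7, 265 and 183 ku in TS-RIP, against 248, 255 and 279 ku in RIPctr, and its change against NT differed in sign between the fractions.

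Of the RNAs of glucose transporters, that of SLC2A1 was higher with both drugs. SLC2A1, the glucose transporter GLUT1, had 239, 183 and 58.2 ku in TS-RIP of 5FdUR, RTX and NT, against 214, 155 and 55.1 ku in RIPctr, and its change against NT was 2.04 and 1.95 with 5FdUR and 1.65 and 1.49 with RTX. Of the 12 glucose and lactate transporters, 4 of the 8 measured were up by 2-fold in both fractions with 5FdUR and 2 of 9 with RTX, and none was down, where 10.0% and 5.33% of all entries were up. SLC16A7, a lactate and pyruvate carrier, was up with both drugs (1.66 and 1.39 with 5FdUR, 1.71 and 1.36 with RTX). BSG, the partner that brings lactate carriers to the membrane, was up with 5FdUR (1.22 and 1.11), as was SLC2A8, a sugar transporter of internal membranes (1.03 and 1.32). SLC16A3, a lactate exporter, was at -0.41 and 0.07 with 5FdUR and -0.67 and -0.29 with RTX. None of the 9 tested passed the limma test of TS-RIP against RIPctr, where 2.33% of all entries were higher and 6.17% lower. Of the 9, 1 had an unadjusted limma p under 0.05, as did 3448 of all 13479 entries. By edgeR 1 of the 9 was called, where 382 of all entries were higher and 711 lower. DESeq2 called 1 of the 9, where 276 of all entries were higher and 419 lower.

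Other isoenzymes of the pathway did not change by 2-fold in both fractions with either drug (0 of 9 measured). Of all entries, 10.0% were up and 7.75% down by that rule with 5FdUR, and 5.33% and 3.61% with RTX. In TS-RIP over the 3 treatments, 1 of 9 tested isoenzymes was called higher, where 2.33% of all entries were. This was PFKL, the liver type of phosphofructokinase (mean ratio 0.39, limma adjusted p = 0.039). It had 187, 254 and 237 ku in TS-RIP of 5FdUR, RTX and NT, against 147, 169 and 199.6 ku in RIPctr, and was above its control in each treatment. The call was lost when the RTX pair (adjusted p = 0.56) or the 5FdUR pair (adjusted p = 0.17) was left out, and with each library scaled to the same total (0.067). PGAM1, which acts between PGK1 and ENO1, had ratios of 0.22, 0.43 and 0.27 (adjusted p = 0.080). HK1, another hexokinase, was more abundant than HK2 (mean over 6 libraries 317 ku against 110 ku). Its ratios were 0.64, 0.66 and -0.07 in 5FdUR, RTX and NT (mean ratio 0.41, limma adjusted p = 0.080). LDHB, the other lactate dehydrogenase subunit, lay in the GYS2 entry, with ratios of 0.22, 0.21 and -0.25 in 5FdUR, RTX and NT. Of the 4 gluconeogenesis genes measured, none changed by 2-fold in both fractions with either drug.

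Among 13 measured regulators of glycolysis, 2 were up and 2 down in both fractions with 5FdUR, and MYC alone was down with RTX. Of all entries, 10.0% were up and 7.75% down by that rule with 5FdUR, and 5.33% and 3.61% with RTX. TIGAR, a p53-induced phosphatase that lowers fructose 2,6-bisphosphate, had 53.7, 26.4 and 15.1 ku in TS-RIP of 5FdUR, RTX and NT, against 56.3, 27.1 and 18.4 ku in RIPctr. Its entry held 3 genes, and it was up in 5FdUR (1.82 and 1.61) and at 0.80 and 0.56 in RTX. BPGM, which makes 2,3-bisphosphoglycerate, was up in 5FdUR (1.49 and 1.13), and MLXIP, a glucose-sensing transcription factor, was down (-1.57 and -1.06). In TS-RIP over the 3 treatments, 2 of the 13 regulators were called lower, where 6.17% of all entries were. They were PRKAA1 and PRKAA2, the catalytic subunits of AMPK (mean ratios -0.43 and -0.66, limma adjusted p = 0.026 and 0.048). Without the RTX pair these were 0.31 and 0.12, without the 5FdUR pair 0.037 and 0.30, and with the same total 0.052 and 0.095.

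Of 13 measured genes of pyruvate entry into mitochondria, 2 were up and 1 down with each drug, where 10.0% of all entries were up and 7.75% down with 5FdUR, and 5.33% and 3.61% with RTX. MPC1 and MPC2, which together form the mitochondrial pyruvate carrier, were up with both drugs, MPC1 at 1.98 and 1.90 with 5FdUR and 1.80 and 1.99 with RTX, and MPC2 at 1.84 and 1.53 and at 1.26 and 1.24. PDP1, the phosphatase that activates pyruvate dehydrogenase, was down with both (-1.66 and -1.52 with 5FdUR, -1.43 and -1.30 with RTX). In TS-RIP over the 3 treatments, 1 of these 13 was called higher, where 2.33% of all entries were. This was PDK2, a kinase that inhibits pyruvate dehydrogenase (mean ratio 0.50, limma adjusted p = 0.038). Its call was lost when the RTX pair (adjusted p = 0.51) or the 5FdUR pair (adjusted p = 0.073) was left out, and with the same total (adjusted p = 0.10).

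In the pentose phosphate pathway, H6PD, its first enzyme in the endoplasmic reticulum, was down most (-2.94 and -2.31 with 5FdUR, -1.61 and -1.30 with RTX), and it was lower by over 2-fold in 5FdUR than in RTX as well (-1.33 and -1.01). RPE, an epimerase of that pathway, was up with 5FdUR (1.26 and 1.07), and the other 6 of 8 measured did not pass. Of all entries, 10.0% were up and 7.75% down by 2-fold in both fractions with 5FdUR, and 5.33% and 3.61% with RTX. In 5FdUR against RTX, 0.352% of all entries were down. Of 15 measured HIF1 targets outside glycolysis, 6 were up with 5FdUR and 2 with RTX, against 10.0% and 5.33% of all entries. None was down by 2-fold in both fractions, but DDIT4, VEGFA and EGLN1 were below NT in both fractions with both drugs. DDIT4 was at -0.88 and -0.91 with 5FdUR and -0.92 and -0.90 with RTX. VEGFA was at -1.16 and -0.49 and at -0.83 and -0.18, and the EGLN1 entry, of 3 genes, at -0.87 and -0.25 and at -0.66 and -0.28. ANGPTL4, a secreted lipase inhibitor, was up at 2.71 and 3.41 with 5FdUR and 1.61 and 2.08 with RTX, and P4HA1, a collagen prolyl hydroxylase subunit, at 1.45 and 1.74 and at 1.27 and 1.67. With 5FdUR alone passing, BNIP3L, a mitophagy receptor, was at 1.25 and 1.42, NDRG1 at 1.35 and 1.21, CA12, a carbonic anhydrase, at 1.14 and 1.43, and INSIG2 at 1.07 and 1.01. A pass with one drug and not with the other is no test of a difference between them.

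**Figure D5:**
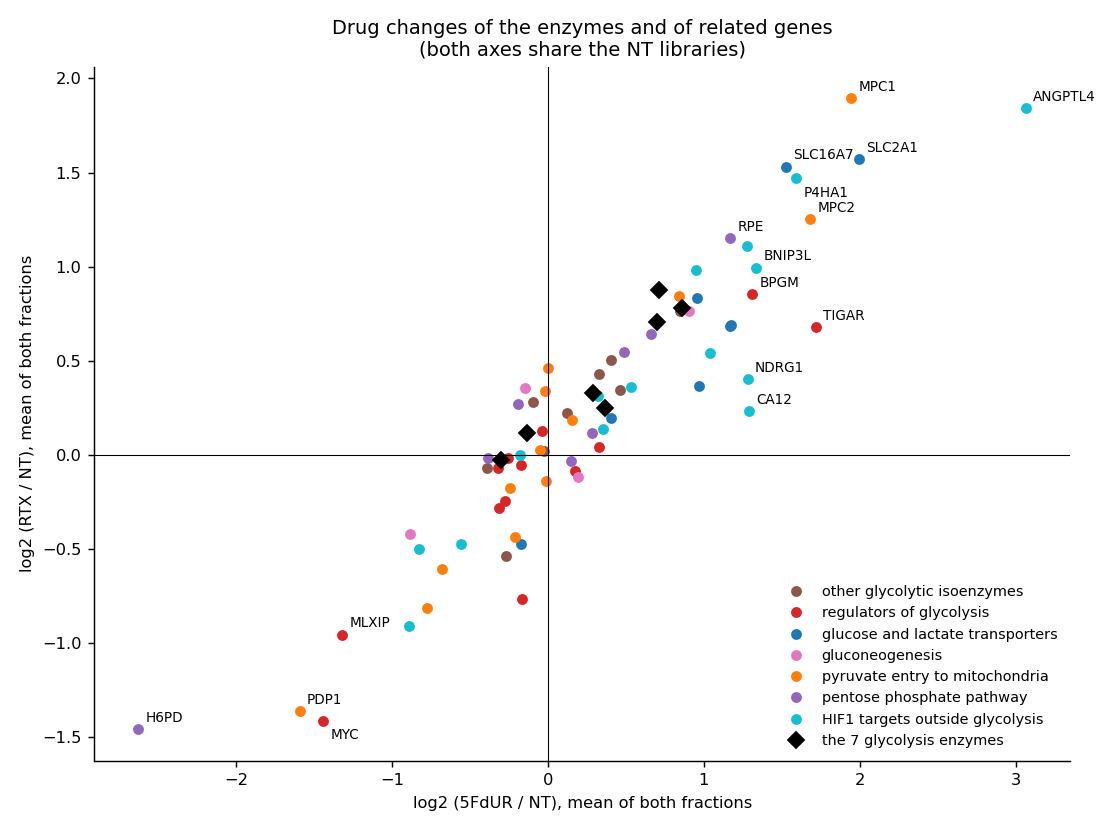
Mean log2 change over both fractions with 5FdUR (horizontal axis) and RTX (vertical axis) against NT, for the 7 enzymes (black diamonds) and genes of 7 related lists with a mean above 1 ku (coloured by list); both axes share the NT libraries. The enzymes lie between -0.30 and 0.88, while SLC2A1, MPC1 and ANGPTL4 lie beyond them and MYC, PDP1 and H6PD on the opposite side.

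The 7 enzymes did not all follow each other across the 6 libraries. Pearson r of log2 values was 0.96 between GAPDH and LDHA, 0.95 between TPI1 and GAPDH and 0.95 between PFKP and PKM. HK2 gave r of -0.59 with TPI1 and -0.57 with PKM, and ENO1 of 0.20 with TPI1 and 0.51 with HK2. The genes most like the mean of the 7, among 9154 others with a mean above 10000, were MED15, TPM3, IDH3B, SHMT2 and PAF1, with r between 0.988 and 0.995 over 6 libraries. TPM3 had ratios of 0.42, 0.48 and -0.25 in 5FdUR, RTX and NT, and SHMT2 of 0.23, 0.41 and -0.11. All points share the scaling of their library, and 6 libraries with 1 lysate per treatment make such values a description only.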

How the data were processed

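The authors depleted rRNA, sequenced paired-end stranded libraries, used fastp for trimming, filtered rRNA reads in silico, aligned to GRCh38 with HISAT2, kept uniquely mapped reads and counted on GENCODE 34 with Cufflinks and Cuffnorm (geometric scaling, no length correction). Tool versions are not given in the sources used here. The deposited values, called FPKM by the authors, are a signal: each value is a multiple of 1 step per library (100% of values under 200 fragments, within 0.05 fragments), so fragments were recovered as value over step. A further 6 per-sample columns, of another series, and the authors' 17 mean and SD columns were not used. The authors' random 50% subsample of each library was used as an alternative only.

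Ratios are differences of log2(value + 100), so changes of low genes are understated. limma 3.58.1 (R 4.3.3) was fitted with treatment as a block, eBayes trend, on entries with a mean above 500, with Benjamini-Hochberg adjustment over all of them and two-sided p. Within 1 treatment a 1.5-fold size rule with a mean of 2 libraries above 500 was used, and for a drug a log2 change of 1 in both fractions with a mean of 4 libraries above 1000. Intervals are 95% exact binomial (Clopper-Pearson) on fragments, or a normal approximation for shifts, and cover counting error only. The fits were tested on simulated data. Alternatives included edgeR 4.0.16, DESeq2 1.42.0, other pseudocounts and filters, and libraries left out.

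The enzymes and lists were chosen with earlier results of these data known. Named from the other lists were genes past an adjusted p of 0.05 or changed by 2-fold in both fractions against NT, at most 6 per list, plus TYMS, TIGAR, MYC, HIF1A, SLC2A1, LDHB and PGAM1, and the 5 genes most like the enzymes. COL1A1, VIM, CDX2, SLC16A3, TPM3, SHMT2, HK1, DDIT4, VEGFA and EGLN1 were singled out after their values were seen.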

Additional observations from a re-analysis of the deposited data

Results flagged for a closer look

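A change of sign in the TS-RIP ratio between a drug and NT drew attention in 8 entries, where TS-RIP lay above its bead control in the drug and below it in NT. The shift of the log2 ratio against NT was largest for GAPDH (0.50 in 5FdUR and 0.75 in RTX). It was seen as well for ENO1 (0.46 in 5FdUR and 0.60 in RTX), PKM (0.48 in 5FdUR and 0.58 in RTX), TPI1 (0.40 in 5FdUR and 0.61 in RTX), PFKP (0.41 in 5FdUR and 0.59 in RTX) and LDHA (0.36 in 5FdUR and 0.36 in RTX). Among the entries shared with another gene it was seen for PDCD2L with GPI (0.48 in 5FdUR and 0.57 in RTX) and ATP7A with PGK1 (0.29 in 5FdUR and 0.26 in RTX). With each library scaled to the same total the shifts were 0.32 and 0.54 for GAPDH, 0.29 and 0.40 for ENO1, 0.30 and 0.37 for PKM, 0.22 and 0.40 for TPI1, 0.24 and 0.38 for PFKP, 0.18 and 0.16 for LDHA, 0.30 and 0.36 for PDCD2L and 0.11 and 0.06 for ATP7A in 5FdUR and RTX. TPI1 and ATP7A no longer changed sign on that scale, and the NT ratios of PKM, PFKP and LDHA were close to 0 (-0.02, -0.04 and -0.06). The signs of the 8 entries were found with both drugs in 13.1% of all entries, or in 5.9% under the same total. Among entries with a mean above 100000, where all 8 lie, they were found in 27.5%, or in 12.6%. Above 1000000 the share was 47.5%, or 32.5%. With 1 library per treatment and fraction these differences were not tested. The median shift of the 80 entries with a mean above 1000000 was 0.39 and 0.47, or 0.22 and 0.26 under the same total. Over the 2278 entries above 100000 it was 0.13 and 0.17, or -0.04 and -0.03.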

How the results depend on the processing

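Over the 3 treatments, 0 of 7 enzymes were called lower under any alternative run, and 0 higher under all but the one that left out the NT pair (range 0 to 6). Over all entries, 314 were higher and 831 lower; leaving out a pair gave 4 to 1862 higher and 359 to 2091 lower. The same total for each library gave 67 higher and 460 lower, the 50% subsample 139 and 475, eBayes without trend 0 and 215, no treatment block 0 and 47, DESeq2 419 lower and no filter on low values 1414 lower. The mean ratio of GAPDH turned negative without the 5FdUR pair (-0.00676) or the RTX pair (-0.13) and reached 0.24 without the NT pair. For ENO1 the range was -0.0724 (without the RTX pair) to 0.23, with -0.0021 without the 5FdUR pair. The median ratio of the enzymes was 0.03 to 0.24 when a pair was left out, 0.09 in all.

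Within a treatment, entries past 1.5-fold in TS-RIP were 417 higher and 2080 lower in 5FdUR, 578 and 1985 in RTX and 581 and 1304 in NT. A pseudocount of 1000 gave 193, 316 and 285 higher in 5FdUR, RTX and NT, and a mean above 2000 gave 189, 371 and 307 higher and 974, 969 and 686 lower. The same total gave 314 higher and 2518 lower in RTX and 901 higher and 1062 lower in NT, and the 50% subsample 666 higher in 5FdUR. No enzyme passed under any of these.

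For the drugs, TS-RIP alone put 1 enzyme up 2-fold in 5FdUR (TPI1) and 3 in RTX (TPI1, GAPDH and LDHA), RIPctr alone 0, and the 1.5-fold rule 1 with each drug. Over all entries, 1.5-fold gave 2538 up and 2290 down in 5FdUR against NT, 1770 and 1697 in RTX against NT, and 516 and 342 in 5FdUR against RTX. No filter on low values gave 2064 up in 5FdUR and 1221 in RTX against NT, and 542 up and 258 down between the drugs. TS-RIP alone gave 2075 down in 5FdUR, 1176 up and 1405 down in RTX, and 350 up and 243 down between the drugs. RIPctr alone gave 1034 up in RTX, and 306 up and 161 down between the drugs, and a pseudocount of 1000 gave 57 up and 20 down between the drugs. The median change of the enzymes in 5FdUR against RTX was -0.04 and turned to 0.00545 under the same total and 0.05 in RIPctr alone.

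Of the 5 genes named for their limma call (PFKL, PDK2, PRKAA1, PRKAA2 and COL1A1), none passed with eBayes without trend, with no treatment block, without the RTX pair or with the same total. The causes of these moves were not tested. No paired analysis by replicate number was possible because each group has 1 library; the treatment block is the pairing used. Depth limits HK2 most, with 705 fragments in its lowest library. 1 library per group leaves no replicate error for any drug comparison.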

Other observations

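Of the 6 colon epithelial markers measured, 2 were up by 2-fold in both fractions with 5FdUR and 1 with RTX, and none was down by that rule, where 10.0% and 5.33% of all entries were up. EPCAM, a surface adhesion protein of epithelia, had 341, 318 and 114 ku in TS-RIP of 5FdUR, RTX and NT, against 279, 269 and 109.99 ku in RIPctr, and was up by 2-fold in both fractions with both drugs (1.58 and 1.34 with 5FdUR, 1.48 and 1.29 with RTX). CDH1, the E-cadherin of adherens junctions, was up with 5FdUR (1.48 and 1.34) and at 0.87 and 0.97 with RTX. KRT8, KRT18 and KRT19, keratins of simple epithelia, did not pass with either drug. CDX2, an intestinal transcription factor, was below NT, at -0.89 and -0.67 with 5FdUR and -0.77 and -0.27 with RTX.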
